A study of Mus musculus with 2 samples.

Results

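The genes described here belong to the creatine cycle, the SERCA calcium pumps and the glycerol cycle, pathways that produce heat without UCP1. The set holds 10 genes chosen by symbol: *Gatm*, *Gamt*, *Slc6a8*, *Ckb*, *Ckm*, *Ckmt1* and *Ckmt2* for creatine, *Atp2a1* and *Atp2a2* for calcium, and *Gk* for glycerol. Their values were taken from every probe set annotated to one of these symbols alone. Such probe sets were found for 9 of the 10 genes, against 18193 genes in all, and they numbered 17. *Gk* had no probe set named in the annotation and was not analysed here.

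RNA came from perigonadal WAT of female C57BL/6 mice, 30 weeks old and kept on the HFD (60% fat by calories) for 25 weeks, and the tissue was taken after an overnight fast. PeriA Tg mice were heterozygous for a transgene in which the adipocyte-specific aP2 promoter/enhancer drives human PeriA. The WT array holds RNA of their non-transgenic littermates. The RNA of 3 mice per genotype was pooled and hybridised to 1 array, which leaves no replicate, so that values come without an error over mice and the genotypes could not be compared by a test. In bulk tissue, fewer cells of a type and less RNA per cell cannot be told apart.

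In a futile cycle, opposing reactions run at the same time, so that ATP is spent and heat is released without net product. In the creatine cycle, creatine kinases move a phosphate from ATP to creatine and a phosphatase removes it again. SERCA pumps use ATP to return calcium to the endoplasmic reticulum, and leak through calcium channels keeps them working. Glycerol kinase returns glycerol from lipolysis to glycerol 3-phosphate, from which triglyceride is rebuilt. These cycles have been described in beige and brown adipocytes, also in cells that lack UCP1.

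The measured quantity was the signal of each probe set, a linear brightness scaled per array. The signal log ratio, called log ratio here, is log2 (Signal of Tg/Signal of WT), and 0.3 and -0.3 were used as thresholds, as in the methods of the study. The signal filter asked for 98.2 or more on at least 1 of the 2 arrays, which is the median over all signals. The spread available here is that among the probe sets of a gene, with a pooled SD of 0.41 in log ratio over 5260 genes. It describes repeated readings of the same pools only.

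None of the passing creatine or SERCA probe sets had a log ratio over 0.3, and the values lay between -0.72 and 0.28. Of the 17 probe sets, 10 passed, each with both signals over 98.2, and 3 of these 10 were under -0.3, namely those of *Gamt*, *Slc6a8* (the dimmer of 2) and *Atp2a2* (the fourth by signal). Among all 23713 passing probe sets, 17.8% were over 0.3 and 21.5% were under -0.3. At the level of genes, with the brightest probe set for each, *Gatm*, *Gamt*, *Slc6a8*, *Ckb* and *Atp2a2* passed. Of these 5, 0 were over 0.3 and *Gamt* alone was under -0.3, while 16.6% of 11587 passing genes were over 0.3 and 16.9% were under -0.3. After median centring of the arrays, the shares of all passing genes were 24.9% and 13.0%, and the counts for the 5 genes were again 0 and 1. The median signal log ratio was -0.15 over the 5 genes and 0.02 over all passing genes. *Ckm*, *Ckmt1*, *Ckmt2* and *Atp2a1* stayed under the filter on both arrays.

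**Figure D1:**
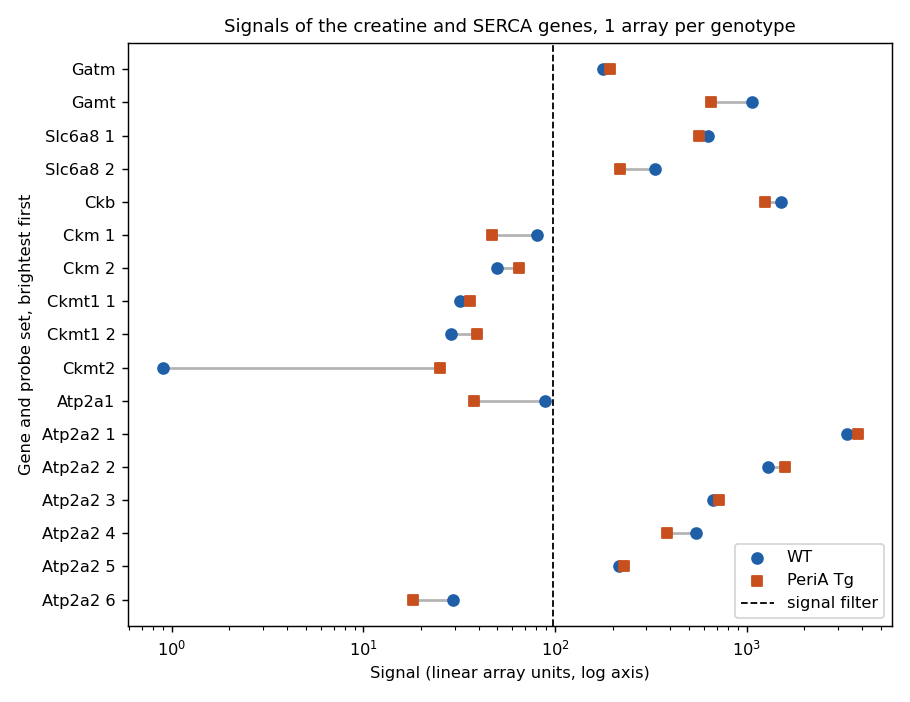
Signal of each probe set (linear array units on a log axis) on the WT array (circles) and the PeriA Tg array (squares), 1 array of pooled RNA per genotype; numbers after a symbol order the probe sets of one gene from the brightest, and the dashed line is the signal filter at 98.2. *Gamt*, the second probe set of *Slc6a8* and the fourth of *Atp2a2* are clearly further left in Tg, and the 7 probe sets left of the line hold *Ckm*, *Ckmt1*, *Ckmt2*, *Atp2a1* and the dimmest of *Atp2a2*.

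Creatine is made in consecutive steps by the products of *Gatm* and *Gamt*. *Gatm* encodes the amidinotransferase that joins arginine and glycine, and lies on chromosome 2 (GRCm38.p6, 122594473 to 122611277). Its probe set had a signal of 178.7 for WT and 194.4 for Tg (log ratio 0.12). *Gamt* encodes the methyltransferase that completes creatine, and lies on chromosome 10 (80258151 to 80261025). Its signal was 1065 for WT and 648.4 for Tg (log ratio -0.72), or 1.64-fold lower in Tg. It was the lowest value among the 10 passing probe sets, and the gene has no other listed probe set against which it could be read.
*Slc6a8*, on chromosome X (73673133 to 73682502), encodes the transporter that carries creatine into cells. Its brightest probe set had 628.1 for WT and 565.4 for Tg (log ratio -0.15). The other had 334.1 for WT and 219.1 for Tg (log ratio -0.61). Both were lower in Tg, but only the dimmer one was past the threshold, and they differed by 0.46.

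Creatine kinases exist as cytosolic brain and muscle forms and as mitochondrial forms. *Ckb*, the brain-type cytosolic kinase on chromosome 12 (111669355 to 111672338), was the one form that passed the filter. Its probe set had 1511 for WT and 1239 for Tg (log ratio -0.29), just inside the threshold. *Ckm*, the muscle-type kinase on chromosome 7 (19411094 to 19421583), had 80.4 for WT and 47.2 for Tg on the brighter probe set and 49.9 for WT and 65.2 for Tg on the other. The signal log ratios of -0.77 and 0.39 thus had opposite signs. *Ckmt1*, the ubiquitous mitochondrial kinase on chromosome 2 (121357773 to 121363737), had 31.9 for WT and 36.2 for Tg on its brighter probe set and 28.7 for WT and 39.3 for Tg on the other. Its signal log ratios were 0.18 and 0.45, from signals under the filter.
*Ckmt2*, the sarcomeric mitochondrial kinase on chromosome 13 (91853386 to 91876923), had a signal of 0.90 for WT and 25.1 for Tg. Both are far under the filter, and the signal log ratio of 4.80 depends on how low signals are treated. It was 0.95 after adding a pseudocount of 25.1 (the 25th percentile of signals), and 0 after raising all signals below a floor of 56.9 (the 40th percentile) to that floor. With the same floor, both log ratios of *Ckmt1* were 0. Among the 21324 probe sets under the filter, 37.4% were over 0.3 and 40.4% were under -0.3, so that a value past the threshold is common at such signals.

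**Figure D2:**
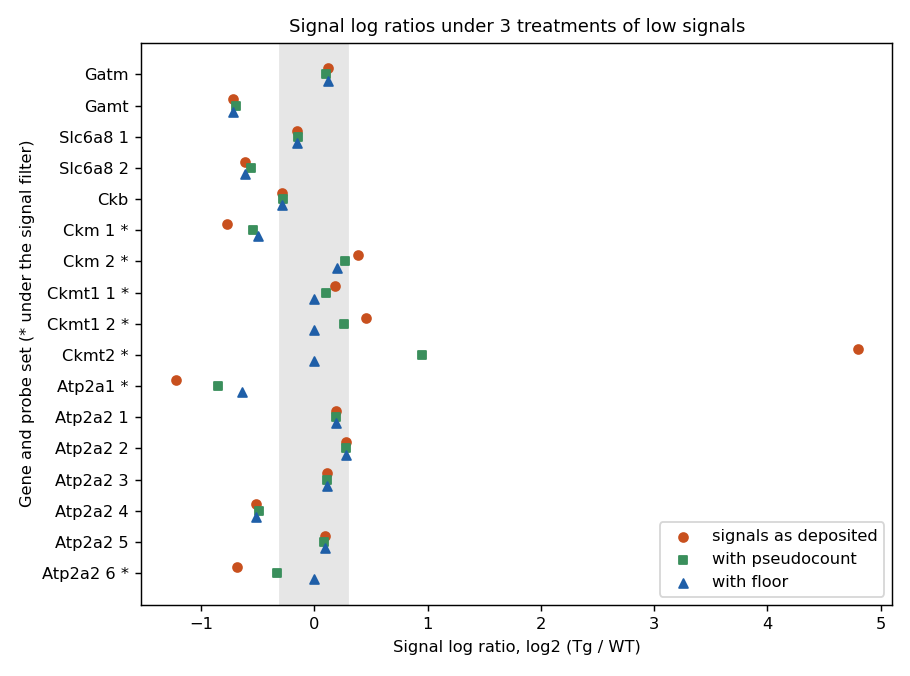
Signal log ratio, log2 (Tg / WT), of the 17 probe sets from the signals as deposited (circles), with a pseudocount of 25.1 (squares) and with a floor of 56.9 (triangles); asterisks mark probe sets under the signal filter and the grey band covers -0.3 to 0.3. The 10 passing probe sets change little, whereas *Ckmt2* moves from 4.80 to 0 and *Atp2a1* from -1.22 to -0.64.

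The windows around the transcription start of *Ckb* and *Gamt* are shown because *Ckb* was the one kinase over the filter and *Gamt* had the lowest log ratio of the passing probe sets. Both sequences are those of RefSeq for GRCm38.p6, on the minus strand, and run from 250 bases before the start to 50 bases after it; RefSeq windows were at hand for 8 of the 10 genes. Capitals mark matches, on either strand, to TATAAA (bound by TBP), CCAAT (bound by NF-Y), GGGCGG (bound by SP1, the GC box) and CANNTG (the E-box); AAGGTCA, a site of oestrogen-related receptors, and TGACGTCA, the cyclic AMP response element, were searched as well and none was found in either window. The *Ckb* window is chr12:111672289-111672588 and the *Gamt* window is chr10:80260963-80261262.
Ckb: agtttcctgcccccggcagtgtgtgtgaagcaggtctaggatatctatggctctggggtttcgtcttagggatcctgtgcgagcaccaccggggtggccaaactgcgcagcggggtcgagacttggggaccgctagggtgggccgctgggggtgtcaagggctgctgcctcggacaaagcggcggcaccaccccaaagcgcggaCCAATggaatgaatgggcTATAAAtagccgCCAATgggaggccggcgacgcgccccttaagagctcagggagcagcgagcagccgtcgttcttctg
Gamt: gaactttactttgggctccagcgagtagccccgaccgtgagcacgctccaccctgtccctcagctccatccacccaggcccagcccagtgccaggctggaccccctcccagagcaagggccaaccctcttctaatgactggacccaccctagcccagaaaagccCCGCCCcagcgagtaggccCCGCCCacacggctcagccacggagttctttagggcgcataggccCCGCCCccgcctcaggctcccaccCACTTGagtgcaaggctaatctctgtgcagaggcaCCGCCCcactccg
The *Ckb* window holds TATAAA at -28 and CCAAT at -46 and -16, counted from the start site to the first base of the match. The *Gamt* window holds no TATAAA, and has 4 GC boxes and 1 E-box. Of 32851 mouse windows of this length, 13.6% hold TATAAA, 37.4% CCAAT, 35.7% GGGCGG, 72.3% CANNTG, 4.72% AAGGTCA and 1.79% TGACGTCA. The GC content was 63.0% for *Ckb* and 66.0% for *Gamt*, against a median of 52.7%.

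The SERCA pumps were represented by *Atp2a2*, whose 5 passing probe sets had 4 values between 0.10 and 0.28 and 1 of -0.51. *Atp2a2*, on chromosome 5 (122453513 to 122502225), encodes SERCA2, the pump of heart, slow muscle and most other tissues. From the brightest downwards, its first probe set had 3325 for WT and 3794 for Tg (log ratio 0.19). The second had 1293 for WT and 1575 for Tg (0.28), and the third had 665.4 for WT and 719.1 for Tg (0.11).
The fourth probe set of *Atp2a2* went the other way, with 547.2 for WT and 384.0 for Tg (-0.51). The fifth had 214.6 for WT and 229.4 for Tg (0.10), and the sixth, under the filter, had 29.2 for WT and 18.2 for Tg. The SD over the 5 passing probe sets was 0.31, larger than each of the 4 positive values. *Atp2a2* has splice forms that differ at the 3' end, and which form each probe set reads was not analysed here.

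The passing probe sets of *Atp2a2* differed in sign and those of *Slc6a8* in size, with SDs of 0.31 and 0.32 that are under the pooled SD of 0.41. The arrays also differed in their labelling controls. Bacterial poly-A RNAs pass through labelling with the sample, and those read here were dap, lys, phe and thr. In 8 of 8 pairs their 5' probe set had a lower log ratio than the 3' one, with a median difference of -0.55. Hybridisation controls enter only afterwards, and 8 pairs of these had a median difference of -0.005. The pairs of both kinds include repeated probe sets for the same control. Of control pairs for mouse transcripts, 4 of 4 had a lower 5' log ratio, with differences from -1.67 for the transferrin receptor to -0.16 and a median of -0.29. The 2 other pairs, for 18S rRNA and a bacterial tryptophan gene not counted among the 8, went the other way, with 0.31 and 0.44. The part of this difference in the values of *Atp2a2*, *Slc6a8* and *Gamt* was not tested.

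*Atp2a1*, on chromosome 7 (126445858 to 126463103), encodes SERCA1, the pump of fast muscle. Its probe set had 88.8 for WT and 38.0 for Tg, under the filter on both arrays, and its signal log ratio of -1.22 became -0.64 with the floor of 56.9. Skeletal muscle markers numbered 20, of which 14 were under the filter. Among the other 6, 0 had a log ratio over 0.3 and 4 had one under -0.3 (16.6% and 16.9% of all passing genes). Their median was -0.58, and the summed signal of the 20 was 9103 for WT and 8352 for Tg. The myosin heavy chain genes *Myh1*, *Myh2*, *Myh4* and *Myh7* had signals of at most 45.0, of *Myh4* in WT; these 4 were named after their values were seen. The brightest markers were *Acta1*, skeletal α-actin, with 5451 for WT and 5353 for Tg, and *Myl1*, a myosin light chain, with 2265 for WT and 2170 for Tg. Together they made up most of the summed signal. The 4 under -0.3 were *Pvalb*, with 391 for WT and 49.6 for Tg (-2.98), and *Mylpf*, *Tnni2* and *Tnnc2*, at -0.72, -0.71 and -0.44. *Mylpf* had 113.6 for WT and 69.1 for Tg, *Tnni2* 127.8 and 77.9, and *Tnnc2* 108.2 and 79.5. All 4 passed the filter only through the WT array, where they were higher. Their count and the median of -0.58 thus depend on the filter. These 4 genes were also named after their values were seen. The part of muscle RNA in the values of *Atp2a1* and *Ckm* was not tested.

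**Figure D3:**
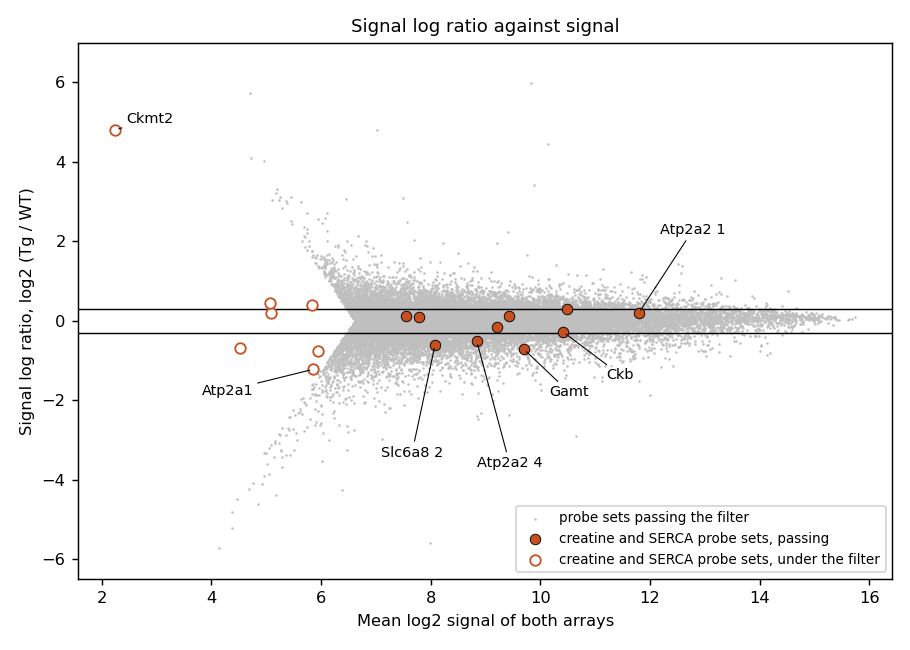
Signal log ratio, log2 (Tg / WT), plotted over the log2 signal averaged across both arrays, for the 23713 passing probe sets (grey) and the 17 creatine and SERCA probe sets (filled when passing, open when under the filter); horizontal lines mark 0.3 and -0.3. The filled points lie between -0.72 and 0.28 within the grey cloud, and *Ckmt2* lies far to the left, at the lowest signals.

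Other genes of each cycle were read from lists by the brightest probe set of each gene. Among all 11587 passing genes, 16.6% were over 0.3 and 16.9% under -0.3, or 24.9% and 13.0% after median centring. The creatine partners were the phosphatase, the adenine nucleotide and porin channels of mitochondria, adenylate kinases, and enzymes of arginine and methyl group metabolism. Of these 16 genes, 14 had a probe set and 10 passed the filter, with 2 over 0.3, 0 under -0.3 and a median signal log ratio of 0.10. The values farthest from 0 were those of *Asl*, argininosuccinate lyase, with 511.2 for WT and 706.7 for Tg (0.47), and of *Ahcy*, which clears the S-adenosylhomocysteine left by methyltransferases, with 1841 for WT and 2461 for Tg (0.42). *Ak1*, the cytosolic adenylate kinase, had -0.28, and *Slc25a4*, an adenine nucleotide carrier, had 9630 for WT and 11509 for Tg (0.26). *Alpl*, which encodes the phosphatase that acts on phosphocreatine in brown fat mitochondria, had 70.8 for WT and 84.0 for Tg, both under the filter. *Alpl* was named after its values were seen.

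The calcium list held 34 genes, the SERCA paralogue *Atp2a3*, small SERCA inhibitors, release channels, store-operated channels, luminal calcium binders and other calcium pumps. Of 28 with a probe set, 17 passed, with 2 over 0.3 and 5 under -0.3 (16.6% and 16.9% of all passing genes). Their median was 0.02, which turned to -0.01 without the filter and to -0.04 on second-brightest probe sets. *Atp2a3*, SERCA3, had 957.5 for WT and 734.4 for Tg (log ratio -0.38), and its other passing probe set had -0.27. Among the release channels, *Ryr1*, the ryanodine receptor of skeletal muscle, had 112.0 for WT and 47.5 for Tg (-1.24, or -0.98 with the floor). *Itpr3*, an inositol trisphosphate receptor, had 172.7 for WT and 96.1 for Tg (-0.85). *Ryr1* and *Itpr3* passed the filter only through the WT array, where they were higher, so the count under -0.3 depends in part on the filter.
*Fkbp1b*, a protein that binds ryanodine receptors, had 203.0 for WT and 142.5 for Tg (-0.51), and *Atp2b4*, a calcium pump of the plasma membrane, had 123.3 for WT and 173.4 for Tg (0.49). These 4 genes had signals of at most 203.0. *Ryr2*, the channel described in beige fat calcium cycling, and the SERCA inhibitors *Sln* and *Pln* were under the filter on both arrays, with 92.0 for WT and 49.8 for Tg, 24.4 and 14.7, and 66.3 and 43.9. These 3 genes were named after their values were seen. Of the 11 passing genes with other passing probe sets, 9 had at least 1 of opposite sign to the brightest.

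The glycerol list held 27 genes of glycerol channels, lipolysis, glycerol 3-phosphate supply and triglyceride synthesis. Of 26 with a probe set, 23 passed, with 7 over 0.3 and 3 under -0.3 (16.6% and 16.9% of all passing genes). Their median was 0.16. The sign of this median depends on the probe set, since it was -0.15 over the 16 genes with a passing second-brightest probe set and 0.00 when each gene was read as the median of its probe sets. Of the kinase paralogues, *Gk5* had 221.0 for WT and 224.3 for Tg (0.02), and *Gk2*, a form of the testis, had signals of 10.9 and 5.80, far under the filter. Of the glycerol 3-phosphate dehydrogenases, *Gpd2* was higher in Tg and *Gpd1* lower on their brightest probe sets. *Gpd1l* had 0.16, with -0.47 on its other passing probe set, and was named after its values were seen. *Gpd2*, the mitochondrial enzyme of the glycerol phosphate shuttle, had 1098 for WT and 2435 for Tg (1.15), and its other 2 passing probe sets had 1.10 and 1.15. *Gpd1*, the cytosolic enzyme, had 4521 for WT and 2801 for Tg (-0.69), and its other 2 had -1.01 and -0.01.
*Gpat3*, which adds the first acyl chain to glycerol 3-phosphate, had 2655 for WT and 5734 for Tg (1.11). *Lpin3*, a phosphatidate phosphatase, had 127.1 for WT and 3.40 for Tg, and its signal log ratio of -5.22 became -1.16 with the floor. *Lpin3* passed the filter only through the WT array, where it was higher. *Aqp7*, the glycerol channel of adipocytes, had 567.8 for WT and 548.0 for Tg (-0.05), and *Pck1*, the main enzyme of glyceroneogenesis, had 6250 for WT and 8527 for Tg (0.45), with -0.80 on its other passing probe set. *Aqp7* and *Pck1* were named after their values were seen. Of the 16 passing genes with other passing probe sets, 5 had at least 1 of opposite sign.

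For comparison, a list of 18 genes of UCP1-dependent heat production and brown adipocytes was read in the same way. Of 16 with a probe set, 14 passed, all 14 were over 0.3 (16.6% of all passing genes), and their median was 1.54. This list was chosen with its values known. *Dio2* (25.3 for WT and 149.2 for Tg) and *Elovl3* (61.5 and 523.7) passed the filter only through the Tg array, where they were higher. *Zic1* (12.9 and 11) and *Lhx8* (1.6 and 13.8) were under it on both arrays. Of the 14 passing genes, 3 had other passing probe sets. That of *Prdm16* had 0.18, inside the threshold, that of *Ppargc1a* had 1.01, and those of *Ppara* had 1.45 and 2.49. *Dio2*, *Zic1*, *Lhx8*, *Prdm16*, *Ppargc1a* and *Ppara* were named after their values were seen. Without the filter, the median over the 16 genes was 1.54. *Ucp1* had 115.1 for WT and 7255 for Tg (5.98), and *Cidea*, *Fabp3* and *Elovl3* had 4.44, 3.43 and 3.09. With 1 array per genotype, the difference between this list and the 5 creatine and SERCA genes that passed the filter, which lay between -0.72 and 0.19 on their brightest probe sets, could not be tested.

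**Figure D4:**
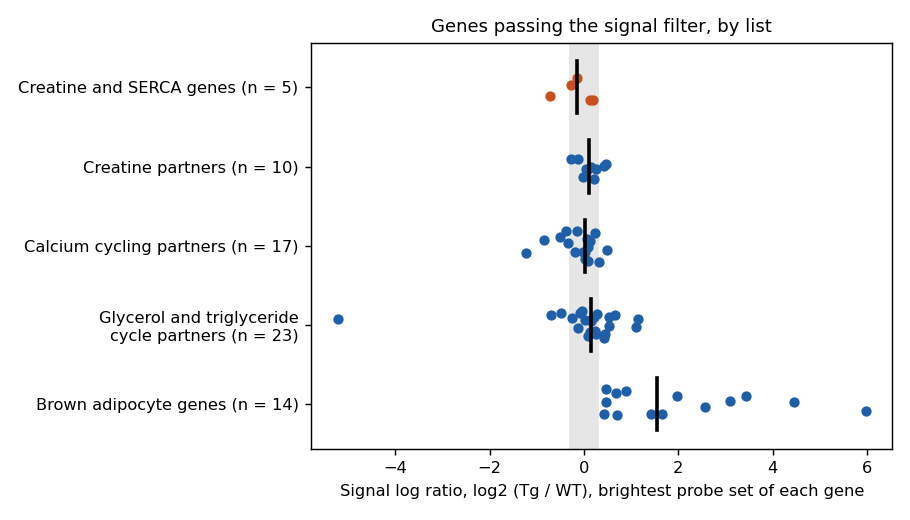
Signal log ratio, log2 (Tg / WT), of the brightest probe set of each gene passing the filter, 1 point per gene, with vertical bars at the medians and a grey band from -0.3 to 0.3; points are spread vertically only to keep them apart. The medians of the creatine and SERCA genes and of the creatine, calcium and glycerol partners lie between -0.15 and 0.16, where on second-brightest probe sets that of the calcium partners turns to -0.04 and that of the glycerol partners to -0.15, and that of the brown adipocyte genes is 1.54.

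Markers of cell types were read beside these values. Their counts past the threshold stand against 16.6% over 0.3 and 16.9% under -0.3 among all passing genes. Mature adipocyte markers were bright, with *Fabp4* at 51832 for WT and 53339 for Tg and *Adipoq* at 41052 and 43803. The other 3 passing probe sets of *Fabp4* had log ratios between 0.27 and 0.55. On brightest probe sets, 7 of 9 adipocyte markers lay within the threshold, 1 was over 0.3 and 1 under -0.3, with a median of 0.04. Medians were -0.26 for 10 macrophage markers, of which 4 were under -0.3 (summed signal 50114 for WT and 41059 for Tg), -0.15 for 8 passing smooth muscle and pericyte markers, of which 2 were under -0.3 and 1 over 0.3 (35775 and 32599 over all 10), -0.03 for 8 endothelial markers, of which 0 were past the threshold (8690 and 8602), -0.06 for 7 fibroblast markers, of which 1 was over 0.3 and 1 under -0.3 (60537 and 61719), and 0.25 for 8 mesothelial markers, of which 3 were over 0.3 (8749 and 10551). Of 8 epithelial markers, only *Krt7*, a keratin, passed, at 0.43 (545.1 and 548.6 over all 8). *Ckb* and *Atp2a2* are also expressed in smooth muscle, whose brightest markers *Acta2* and *Rgs5* had -0.24 and -0.06. The other passing probe set of *Acta2* had -0.38 and the other 3 of *Rgs5* lay between -1.06 and -0.75. The smooth muscle markers under -0.3 were *Cnn1*, calponin, at -0.76 and *Myh11*, smooth muscle myosin, at -0.37. Of the other passing markers of this list, *Pdgfrb* had -0.27, while *Des*, *Cspg4* and *Tagln* went the other way with 0.302, 0.24 and 0.09. All of these but *Acta2* and *Rgs5* were named after their values were seen. The part of smooth muscle cells in the signals of *Ckb* and *Atp2a2* was not tested. The reference genes *Rplp0*, *Actb* and *Hprt* had 0.07, -0.06 and -0.14.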

How the data were processed

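Gene expression in perigonadal WAT was measured on 2 Mouse Genome arrays, 1 pool of RNA from 3 WT or 3 PeriA Tg mice on each, and genotypes were taken from the labels. The authors deposited linear intensity values made with GeneChip Operating Software ver1.4 (MAS5 in the submitters' notes), which combine perfect-match and mismatch probes, scale each array as a whole and are unreliable when small. Each array had a 2% trimmed mean of 500.0. No Present calls were in the table, and a median signal filter of 98.2 was used in their place.

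Of 45037 probe sets other than controls, 34945 had 1 symbol, 932 several and 9160 none in the platform annotation; symbols were updated by Entrez number. The probe set with the highest mean log2 signal stood for its gene. Genes, lists and markers were chosen with earlier results of these data known. The genes named from each list are the 4 passing ones farthest from 0 and paralogues of the set. The brightest 2 were named from the adipocyte, skeletal muscle and smooth muscle lists, and *Krt7* as the only passing epithelial marker. The macrophage, endothelial, mesothelial and fibroblast lists were read without naming genes. Others are stated as named after their values were seen. With 1 array per genotype no test was made. Alternatives tried were loess with a span of 0.3, quantile normalization, median centring, the pseudocount, the floor, no filter, a filter at 470.5 (the 75th percentile), and other choices among the probe sets of a gene. The ratio calculation was tested on simulated data. The number of arrays limits the precision. Python 3.11.15, numpy 2.4.6, pandas 2.3.3, statsmodels 0.14.6 and matplotlib 3.10.9 were used.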

Additional observations from a re-analysis of the deposited data

How the results depend on the processing

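*Gamt* had signal log ratios between -0.72 and -0.63 over 9 alternatives, *Ckb* between -0.29 and -0.20 over 8, and *Atp2a2* between 0.10 and 0.28 over 10. The count of genes over 0.3, 0 of 5, became 1 of 9 without a filter, which admits *Ckmt2*, and the count under -0.3, 1 of 5, became 3 of 9, which admits *Ckm* and *Atp2a1*. With each gene read as the median of its probe sets it was 2, since *Slc6a8* had -0.38, and on second-brightest probe sets *Ckm* had 0.39 against -0.77 and *Slc6a8* had -0.61. The brown adipocyte list had a median of 1.01 on second-brightest probe sets, which passed for 3 of its genes. List medians of 0.10 for creatine partners, 0.02 for calcium partners and 0.16 for glycerol partners were 0.18, 0.10 and 0.24 after median centring, and 0.18, 0.011 and 0.0042 with each gene read as the median of its probe sets. On second-brightest probe sets, calcium partners had -0.044 and glycerol partners -0.15. Without a filter, creatine partners had 0.052 and calcium partners -0.013, and after quantile normalization creatine partners had 0.061. Median centring changed the split of genes past the threshold from 49.6% to 65.6% over 0.3, with 24.9% of all passing genes over 0.3 and 13.0% under -0.3. No paired analysis was possible because each genotype has 1 array, and for the same reason no replicate could be left out. Signals under the filter, those of *Ckm*, *Ckmt1*, *Ckmt2* and *Atp2a1*, give no order between the genotypes.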
